A study of Caenorhabditis elegans with 10 samples.

Results

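The 87 genes described here are the hedgehog-related and patched-related genes of Caenorhabditis elegans, taken by symbol from the 46752 genes counted. They are every gene named wrt-, grd-, grl-, ptr- or ptc- with a number, together with hog-1, while qua-1 was left out. On the ligand-like side stand 60 genes, namely 10 wrt (warthog), 17 grd (groundhog), 32 grl (ground-like) and hog-1. On the receptor-like side stand 27 genes, namely 3 ptc (patched) and 24 ptr (patched-related). Messenger RNA had been sequenced from whole worms of 2 strains: N2, the laboratory wild type, and F01D4.5(baf20), a strain named after the gene F01D4.5 whose alteration is not described in the labels. Both strains grew on OP50 bacteria at 20 °C and were collected 48 hours after release from L1 arrest, at 1000 to 2000 worms a sample, with 5 samples per strain that the design text calls biological replicates. The comparison asks whether the strains differ in these genes.

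As background, hedgehog-related proteins are secreted proteins with a Wart, Ground or Ground-like domain at the amino-terminal end, and some of them also carry the self-cleaving Hog domain found in the Hedgehog proteins of other animals. The worm has no true Hedgehog and no Smoothened, the protein that passes the Hedgehog signal on in flies and vertebrates. Patched and patched-related proteins are multi-pass membrane proteins with a sterol-sensing domain. Many genes of both kinds are known to be active in the epidermis and in glia, to act in cuticle formation, moulting and membrane traffic, and to be switched on and off with each larval moult.

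Libraries held 9059910 to 11056979 counts, so that 3 counts stood for 0.271 to 0.331 CPM, the unit used here for counts scaled to the size of the library. F01D4.5 itself averaged 10.8 ± 2.93 CPM over N2 and 3.23 ± 0.738 CPM over F01D4.5(baf20) (SD, n = 5 per strain), and the strains did not overlap. Both libraries numbered 5, one of each strain, stood apart, being above all the other 8 libraries for 23.2% of the 12332 tested genes and below all of them for 19.2%. No batch is named in the labels. In whole worms, a lower share of expressing cells and less RNA per cell cannot be told apart.

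Enough counts for a test were found in 48 of the 87 genes, 26 ligand-like and 22 receptor-like. Low counts kept another 30 genes out, with 4 to 96 counts over all 10 libraries, and 9 genes had no count in any library. These were grd-1, grd-8, grd-17, grl-14, grl-16, grl-23, grl-29, ptr-10 and wrt-3. Of them, 6 (grd-1, grl-14, grl-16, grl-23, ptr-10 and wrt-3) are spread over several transcript rows in the deposited tables, in which reads shared by isoforms appear to be missing, so that their level is unknown rather than 0. Exons of wrt-3 also overlap the pseudogene F38E11.8 on the same strand by 1002 bases (41.1%). That pseudogene averaged 5.04 CPM over N2 and 6.25 CPM over F01D4.5(baf20), and the effect of the overlap on wrt-3 was not tested. Another 12 genes, hog-1, ptc-1, ptc-3 and wrt-5 among them, also have several rows, and their levels may be too low. The same limit applies to F01D4.5, which has 2 rows. Ranks by level given below are therefore ranks of levels as counted. Among the ligand-like genes 34 of 60 were not tested, 23 of these from the grl family, against 5 of 27 receptor-like genes.

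**Figure D1:**
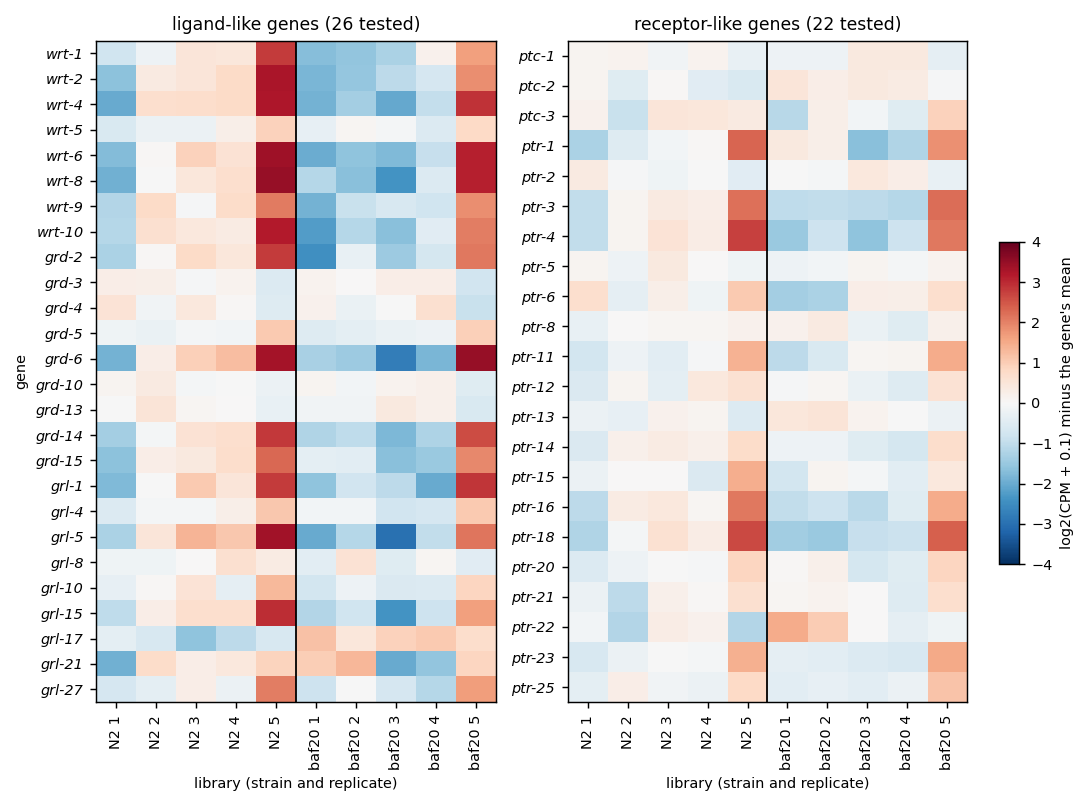
Level of each tested gene in each library, as log2(CPM + 0.1) minus the gene's mean over the 10 libraries, with ligand-like genes on the left and receptor-like genes on the right. Most rows are reddest in the columns N2 5 and baf20 5, whereas grd-3, grd-4, grd-10, grd-13, ptc-1 and ptr-2 are bluest there, and the strains do not separate by colour except for grl-17.

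Every tested warthog gene was highest in the libraries numbered 5. Per kilobase of exon, wrt-4 (18.8 CPM per kb over all libraries), wrt-6 (16.6) and wrt-5 (14.4) had the highest levels. wrt-4 stood at 3.72, 24.2, 25, 25.8 and 143 CPM in N2 replicates 1 to 5 and 3.99, 5.91, 3.63, 7.81 and 113 CPM in F01D4.5(baf20) replicates 1 to 5. wrt-6 stood at 3.81, 13.4, 24.5, 19.2 and 136 CPM in N2 replicates 1 to 5 and 3.17, 4.21, 3.73, 6.74 and 113 CPM in F01D4.5(baf20) replicates 1 to 5. In N2, replicate 5 was 5.54 times the next highest library for wrt-4 and 5.55 times for wrt-6, in F01D4.5(baf20) it was 14.5 and 16.7 times, and the strains overlapped. wrt-8, at a lower level, had 0.726, 3.0, 4.21, 4.91 and 35.0 CPM in N2 replicates 1 to 5 and 1.33, 0.902, 0.504, 2.07 and 27.4 CPM in F01D4.5(baf20) replicates 1 to 5. Against the mean of replicates 1 to 4, replicate 5 of wrt-8 was higher 10.9-fold in N2 and 22.8-fold in F01D4.5(baf20), of wrt-6 8.93-fold in N2 and 25.2-fold in F01D4.5(baf20) and of wrt-4 7.26-fold in N2 and 21.2-fold in F01D4.5(baf20).

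wrt-5, known to be needed for the development of the epidermis, moved least of the wrt genes, at 7.17, 9.30, 9.18, 12.9 and 20.6 CPM in N2 replicates 1 to 5 and 8.70, 11.5, 10.3, 7.37 and 19.2 CPM in F01D4.5(baf20) replicates 1 to 5. Its replicate 5 stood above replicates 1 to 4 2.13-fold in N2 and 2.03-fold in F01D4.5(baf20). The counts of wrt-5 came from 2 of its 3 transcript rows, with 743 for W03D2.5a and 405 for W03D2.5b. The neighbours wrt-1 and wrt-10 lie tail to tail on chromosome II with 15 bases between them and were both highest in replicate 5 of either strain. wrt-1 stood at 3.0, 4.55, 7.34, 7.27 and 37.3 CPM in N2 replicates 1 to 5 and 1.54, 1.70, 2.12, 5.93 and 16.5 CPM in F01D4.5(baf20) replicates 1 to 5. wrt-10 stood at 2.09, 7.44, 6.37, 6.0 and 43.6 CPM in N2 replicates 1 to 5 and 0.921, 2.10, 1.41, 3.41 and 20.0 CPM in F01D4.5(baf20) replicates 1 to 5. Between the libraries numbered 5, F01D4.5(baf20) was the lower one for each of the 8 tested wrt genes. wrt-2 and wrt-9 had means of 2.78 and 2.65 CPM over all libraries, wrt-7 had 13 counts in all and wrt-3 had none.

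The groundhog genes held the highest levels per length and showed opposite patterns. As counted, grd-5 (389 CPM per kb), grd-3 (276) and grd-14 (227) led all 87 genes, while genes with several transcript rows may rank too low. grd-5 stood at 168, 156, 179, 174 and 391 CPM in N2 replicates 1 to 5 and 133, 144, 158, 164 and 370.0 CPM in F01D4.5(baf20) replicates 1 to 5. Replicates 1 to 4 of both strains thus lay in a narrow band from 133 to 179 CPM, and both libraries numbered 5 lay well above it. grd-14 stood at 27.1, 66.1, 106, 111 and 497 CPM in N2 replicates 1 to 5 and 30.6, 35.1, 20.4, 29.9 and 433 CPM in F01D4.5(baf20) replicates 1 to 5. It spanned a 24.4-fold range, with N2 replicates 2, 3 and 4 above every F01D4.5(baf20) library other than replicate 5. grd-6 spanned a 79.9-fold range with 3.99, 18.1, 29.5, 35.9 and 153 CPM in N2 replicates 1 to 5 and 6.04, 5.41, 2.12, 4.22 and 169 CPM in F01D4.5(baf20) replicates 1 to 5, and replicate 5 was higher 7.01-fold in N2 and 38-fold in F01D4.5(baf20). Of the weaker genes, grd-2 and grd-15 also peaked in the libraries numbered 5. grd-2 stood at 0.817, 2.17, 3.67, 2.91 and 15.2 CPM in N2 replicates 1 to 5 and 0.307, 1.70, 0.705, 1.26 and 9.50 CPM in F01D4.5(baf20) replicates 1 to 5. grd-15 had 12.4 and 9.50 CPM in the libraries numbered 5, against 0.705 to 4.09 CPM elsewhere.

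Another 4 groundhog genes were lowest in the libraries numbered 5. grd-3 stood at 226, 217, 179.6, 205 and 128 CPM in N2 replicates 1 to 5 and 204, 189, 224, 222 and 110.0 CPM in F01D4.5(baf20) replicates 1 to 5. It shares a stretch of chromosome IV with grd-13 and grd-10, all on the plus strand, with 147 bases between grd-13 and grd-3 and 601 between grd-3 and grd-10. grd-10 (46.2 CPM in N2 replicate 5, 38.8 in F01D4.5(baf20) replicate 5, 50.6 to 69.5 elsewhere) and grd-13 (20.2, 16.4, and 22.7 to 36.1) had the same order. Closeness on the chromosome did not always go with a shared pattern. grd-4 lies 184 bases downstream of grd-14 on chromosome X, and its lowest values were 2.70 and 2.03 CPM in the libraries numbered 5, in which grd-14 was highest. For grd-3, grd-4, grd-10 and grd-13 the strains overlapped, and their means differed by less than 1 SD.

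Among the ground-like genes, grl-4 (133 CPM per kb), grl-21 (129) and grl-5 (20.0) were highest per length, and 6 of 9 tested genes peaked in the libraries numbered 5. grl-4 stood at 67.6, 94.9, 93.6, 118 and 211 CPM in N2 replicates 1 to 5 and 91.6, 93.1, 58.0, 62.2 and 206 CPM in F01D4.5(baf20) replicates 1 to 5. grl-5 stood at 3.18, 11, 20.1, 16.7 and 80.5 CPM in N2 replicates 1 to 5 and 1.84, 3.51, 0.907, 3.86 and 34.7 CPM in F01D4.5(baf20) replicates 1 to 5. Its strains overlapped through N2 replicate 1 and F01D4.5(baf20) replicate 5. grl-15 stood at 1.73, 4.34, 5.83, 5.73 and 28.2 CPM in N2 replicates 1 to 5 and 1.54, 2.0, 0.605, 1.98 and 11.4 CPM in F01D4.5(baf20) replicates 1 to 5. grl-1 stood at 0.454, 1.76, 3.78, 2.54 and 13.0 CPM in N2 replicates 1 to 5 and 0.512, 1.00, 0.806, 0.359 and 13.5 CPM in F01D4.5(baf20) replicates 1 to 5. In both genes the libraries numbered 5 were above all others, and the strains overlapped. Replicate 5 of grl-10 was higher 2.46-fold in N2 and 2.61-fold in F01D4.5(baf20) than the mean of replicates 1 to 4, and that of grl-27 5.16-fold in N2 and 5.27-fold in F01D4.5(baf20).

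grl-21, whose product acts with PTR-24 in fat storage, followed other libraries. It stood at 17.4, 109, 79.4, 88.2 and 123 CPM in N2 replicates 1 to 5 and 129.9, 166, 16.4, 22.3 and 120.5 CPM in F01D4.5(baf20) replicates 1 to 5. N2 replicate 1 and F01D4.5(baf20) replicates 3 and 4, at 16.4 to 22.3 CPM, were low, and the other 7 libraries were high, at 79.4 to 166 CPM. The mean of F01D4.5(baf20) replicates 1 and 2 was 7.66 times that of replicates 3 and 4. grl-8 had 5.39 ± 1.41 CPM over the N2 libraries and 4.57 ± 1.64 CPM over the F01D4.5(baf20) libraries (SD, n = 5 per strain) without a high library numbered 5.

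Of the 30 genes with counts that were not tested, 8 (26.7%) had both libraries numbered 5 above the other 8 in CPM. The share over all tested genes was near it, at 23.2%, but those had enough counts for a test. No share was computed over other genes with low counts. hog-1, the gene that has a Hog domain without a Wart or Ground domain, held 16 and 10 counts in them, against 0 to 4 elsewhere. grl-7, which has been shown to be cleared from the extracellular space through PTR-18, held 49 and 16 counts against 0 to 12. grl-2, a marker of the excretory duct and pore, held 20 and 20 against 0 to 4. The others were grd-9, grd-12, grl-12, grl-22 and ptr-19, and for grd-9 and ptr-19 the counts of 3 and 6 in the libraries numbered 5 equalled the highest count elsewhere and were above it only after scaling. The ground-like genes grl-28 to grl-32, side by side on chromosome V between 3551346 and 3560508 (WBcel235), had 9, 0, 15, 27 and 11 counts over 10 libraries and were close to silent.

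**Figure D2:**
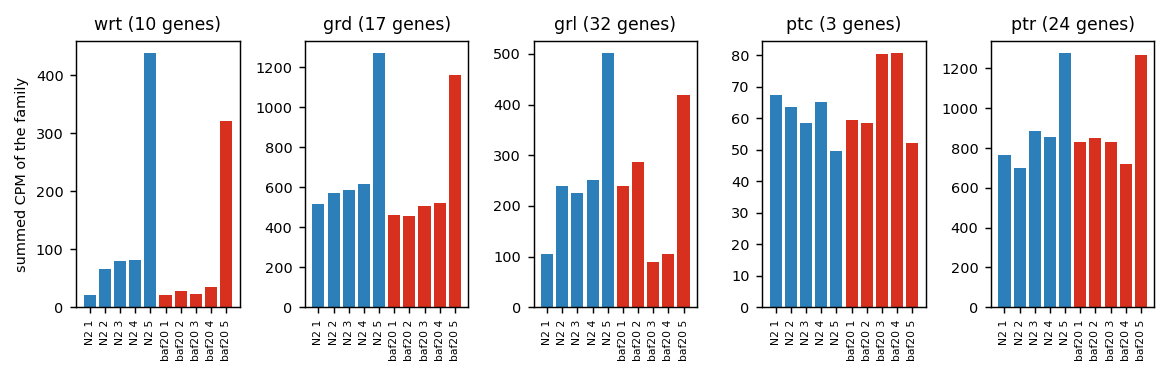
Summed CPM of all genes of a family in each library (blue N2, red F01D4.5(baf20), no error bar because each bar is 1 library). The wrt, grd, grl and ptr sums are highest in the libraries numbered 5 of both strains, with 437 and 321 CPM for wrt, while the ptc sums, at 49.7 and 52.1 CPM, are lowest there.

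By the median of each side, the receptor-like genes moved less between libraries than the ligand-like genes. The ratio of the highest to the lowest library had a median of 3.89 over the 22 tested receptor-like genes and of 18.4 over the 26 ligand-like genes, beside 2.04 over the 12323 tested genes with counts in every library. The SD of log2 CPM between N2 replicates had a median of 0.556 for receptor-like, 1.24 for ligand-like and 0.298 for all tested genes.

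Among the patched genes proper, ptc-1, which germ cells need to complete cytokinesis, led with 9.95 CPM per kb. It stood at 53.7, 54.8, 45.0, 55.1 and 40.7 CPM in N2 replicates 1 to 5 and 43.3, 43.3, 64.7, 65.7 and 38.7 CPM in F01D4.5(baf20) replicates 1 to 5. Within F01D4.5(baf20), replicates 3 and 4 were high and 1, 2 and 5 were low, so that the range of that strain enclosed the range of N2. ptc-2 stood at 11.9, 7.96, 11.4, 8.09 and 7.16 CPM in N2 replicates 1 to 5 and 15.5, 13.4, 14.5, 13.9 and 10.6 CPM in F01D4.5(baf20) replicates 1 to 5. All F01D4.5(baf20) libraries but replicate 5 lay above all N2 libraries. ptc-3, which takes part in sterol handling and larval growth, had only 1.63, 0.723, 2.05, 2.0 and 1.87 CPM in N2 replicates 1 to 5 and 0.614, 1.70, 1.31, 0.988 and 2.83 CPM in F01D4.5(baf20) replicates 1 to 5, all of it from 1 of 3 transcript rows, and the strains overlapped.

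The patched-related genes with the highest levels per length were ptr-2 (78.6 CPM per kb), ptr-21 (54.3) and ptr-8 (36.2), whose highest library was 1.83, 3.26 and 1.76 times their lowest. ptr-2 stood at 288, 217, 202, 223 and 165 CPM in N2 replicates 1 to 5 and 225, 212, 301, 272 and 184 CPM in F01D4.5(baf20) replicates 1 to 5. It was lowest in the library numbered 5 of either strain. ptr-21 stood at 149, 84.9, 202, 181 and 271 CPM in N2 replicates 1 to 5 and 185, 194, 176, 123 and 276 CPM in F01D4.5(baf20) replicates 1 to 5, and was highest in those libraries. ptr-8 stood at 80.8, 101, 105, 105 and 113 CPM in N2 replicates 1 to 5 and 111, 127, 83.8, 72.1 and 114 CPM in F01D4.5(baf20) replicates 1 to 5, with the strains overlapping.

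By the mean of both libraries numbered 5 over that of the other 8, ptr-18, ptr-4 and ptr-3 ranked first among the ptr genes, with ratios of 7.72, 7.32 and 6.29, while within N2 alone the ratio was highest for ptr-1 (6.54). ptr-18, the receptor-like protein that clears GRL-7, stood at 5.90, 12.9, 21.2, 17 and 85.9 CPM in N2 replicates 1 to 5 and 5.22, 4.81, 7.16, 7.46 and 71.6 CPM in F01D4.5(baf20) replicates 1 to 5. ptr-4, which is needed for an orderly precuticle, the apical matrix laid down before a new cuticle, stood at 4.45, 9.51, 13.0, 10.8 and 59.4 CPM in N2 replicates 1 to 5 and 3.07, 4.91, 2.82, 4.94 and 38.4 CPM in F01D4.5(baf20) replicates 1 to 5. ptr-3 stood at 4.09, 8.89, 10.6, 9.997 and 38.2 CPM in N2 replicates 1 to 5 and 3.99, 4.11, 3.93, 3.68 and 39.2 CPM in F01D4.5(baf20) replicates 1 to 5. In all 3 genes the libraries numbered 5 were far above the rest, and among replicates 1 to 4 all F01D4.5(baf20) values were below all N2 values but N2 replicate 1. ptr-23, known for a role in the response to osmotic stress, held 206 and 221 CPM in the libraries numbered 5 and 48.8 to 75.1 CPM elsewhere. In all, 14 of 19 tested ptr genes were highest in both libraries numbered 5, ptr-2 was lowest in both, and ptr-5, ptr-8, ptr-13 and ptr-22 were neither.

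**Figure D3:**
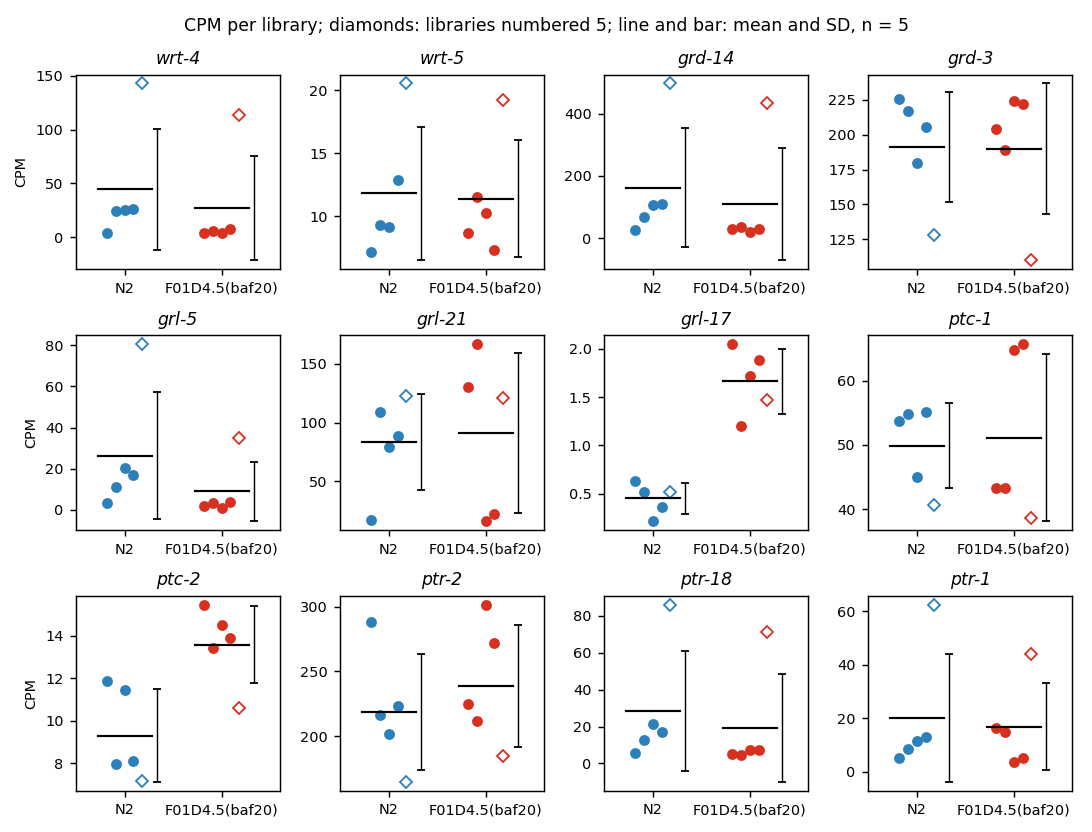
CPM of 12 genes in each library (circles replicates 1 to 4, open diamonds replicate 5; line and bar are the mean and SD, n = 5 per strain; vertical axes do not start at 0 in every panel). The diamonds are far above the circles for wrt-4, grd-14, grl-5, ptr-18 and ptr-1, below them for grd-3 and ptr-2, and the strains are apart only for grl-17.

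Counted over families, both libraries numbered 5 lay above all other libraries in 19 of 26 ligand-like genes (73.1%) and 14 of 22 receptor-like genes (63.6%), where 23.2% of all 12332 tested genes did so. They lay below all others in 4 ligand-like and 2 receptor-like genes (15.4% and 9.09%), where 19.2% of all tested genes did so. The median ratio of replicate 5 to replicates 1 to 4 was 4.82 in N2 and 6.61 in F01D4.5(baf20) for ligand-like genes, 1.81 and 2.04 for receptor-like genes, and 0.995 and 0.961 for all tested genes. These are 1 library per strain, given as a description with no test.

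Some markers of the moult were high in these libraries. The 10 moult genes summed to 666 and 479.5 CPM against 146 to 299.6 in the other 8 libraries, and 4 of 8 tested were highest in both libraries numbered 5 (mlt-7, mlt-8, mlt-10 and noah-2). nhr-23, nas-37, nekl-2 and nekl-3 lay between the other libraries in at least 1 of them. Of these, nhr-23 (6 transcript rows), nas-37 (2) and nekl-3 (2) may be counted too low, whereas nekl-2 and the 4 that peaked have 1 row each. mlt-11 was at 0, but it is spread over 8 transcript rows, so that its level is unknown. noah-1, with 3 rows, had too few counts for a test. The 6 furrow collagens summed to 175 and 60.2 CPM against 8.39 to 33.1, with 5 of 5 highest there and dpy-10 at 0. The 8 oocyte genes went the other way, with 2330.4 and 3300.3 CPM against 4151 to 6662, 6 of 7 lowest there and rme-2 at 0. By strain, the moult sum ranged over 155 to 666 CPM in N2 and 146 to 479.5 CPM in F01D4.5(baf20), the furrow sum over 12.5 to 175 and 8.39 to 60.2, and the oocyte sum over 2330.4 to 5786 and 3300.3 to 6662. The sum of the seam and epidermis list was 68.7 and 69.9 CPM against 27.7 to 60.1, with 1 of 2 tested highest in both. That of the sperm list was 292 and 267 CPM against 293 to 407, with 0 of 6 tested highest and 0 lowest in both. The sums of the other lists were 2280.3 and 2771 CPM against 1790.0 to 2388 for intestine (2 of 3 tested highest, pho-1 at 0), 878 and 1108 CPM against 855 to 1020.0 for body wall muscle (1 of 3 tested highest, unc-15 at 0) and 260.4 and 253 CPM against 231 to 280.1 for neurons (1 of 4 tested highest). gsp-4 of the sperm list was also at 0. Whether the zeros of the listed genes other than mlt-11 come from reads missing between transcript rows was not examined, so that they are zeros as counted. The part of the listed markers in the levels of the hedgehog-related and patched-related genes was not tested.

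**Figure D4:**
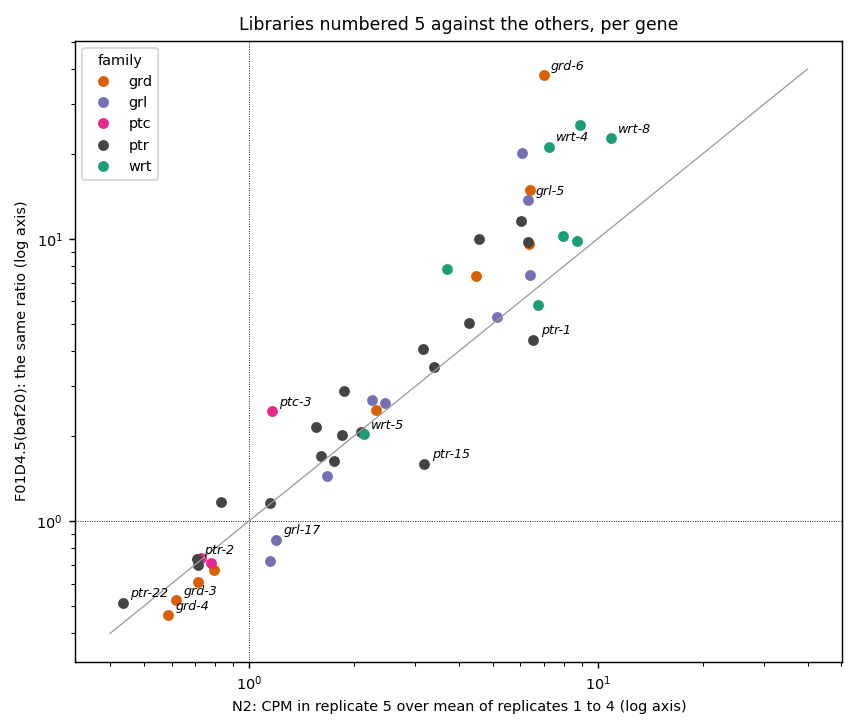
Ratio of the CPM in replicate 5 to the mean of replicates 1 to 4 for each tested gene, in N2 (horizontal) and in F01D4.5(baf20) (vertical), both on log axes, with the diagonal marking equal ratios and colours the families. wrt, grd and grl genes reach 10.9-fold in N2 (wrt-8) and 38-fold in F01D4.5(baf20) (grd-6), whereas grd-3, grd-4, ptr-2 and ptr-22 lie below 1 in both strains.

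Within F01D4.5(baf20), replicates 1 and 2 differed from replicates 3 and 4 in a small share of genes. The mean of the first pair was at least 2-fold higher in 4 of 48 genes (8.33%, beside 5.02% of all tested genes) and at least 2-fold lower in 2 (4.17%, beside 2.38%). The higher ones were grl-21, ptr-1 with 3.40-fold, ptr-22 with 2.83-fold and grd-15 with 2.41-fold. ptr-1 stood at 5.08, 8.58, 11.4, 12.9 and 62.2 CPM in N2 replicates 1 to 5 and 16.3, 14.7, 3.83, 5.30 and 44.1 CPM in F01D4.5(baf20) replicates 1 to 5. The lower ones were ptr-6, 2.98-fold, and wrt-1, 2.48-fold. ptr-6 stood at 21.6, 10.5, 16.1, 12 and 27.9 CPM in N2 replicates 1 to 5 and 5.22, 5.61, 16.4, 15.8 and 21.7 CPM in F01D4.5(baf20) replicates 1 to 5, with F01D4.5(baf20) replicates 1 and 2 below all other libraries.

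Between the strains, no hedgehog-related or patched-related gene passed the threshold. By the quasi-likelihood test of edgeR, with Benjamini-Hochberg correction for 12332 genes, 0 of 48 had an adjusted p under 0.05, where 0.0649% of all tested genes did. At an unadjusted p under 0.05, 2 genes were higher in F01D4.5(baf20), grl-17 and ptc-2, where 3.52% of all tested genes were, and 0 were lower, where 2.24% were. DESeq2 called 1 gene, grl-17, which was higher in F01D4.5(baf20), where it called 0.268% of all tested genes. As described below, grl-17 entered the test through F01D4.5(baf20) alone. Neither its place among the 2 higher genes nor its DESeq2 call can therefore be weighed against these shares. In the counts of higher genes given below, the 1 ligand-like gene is grl-17 each time. How the 5 samples of a strain were grown apart is not described, so that p-values measure the spread between these samples.

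grl-17, a ground-like gene on chromosome V at 13561973 to 13563941 (WBcel235, minus strand), was the only gene whose strains did not overlap, where 0.795% of all tested genes lay wholly above N2 and 0.649% wholly below. Its counts were 7, 5, 2, 4 and 5 in N2 replicates 1 to 5 and 20, 12, 17, 21 and 13 in F01D4.5(baf20) replicates 1 to 5. Scaled to library size they were 0.636, 0.517, 0.216, 0.364 and 0.519 CPM in N2 replicates 1 to 5 and 2.05, 1.2, 1.71, 1.89 and 1.47 CPM in F01D4.5(baf20) replicates 1 to 5. Every F01D4.5(baf20) library was above every N2 library, with libraries numbered 5 inside the range of their own strain. The ratio of the summed counts, 83 to 23, was 3.68 (exact binomial 95% interval from 2.29 to 6.12, for counting error alone), and the fit of edgeR gave log2 fold change 1.85 with an SE of 0.295 and adjusted p = 0.0666. The gene entered the test through F01D4.5(baf20) alone, because none of its N2 libraries reached the level of the filter on low counts, and it was the only tested gene of the 87 for which this held. A gene that passes in this way has to differ. By DESeq2 its adjusted p was 0.0133.

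Exons of grl-17 overlap those of C56A3.8 on the opposite strand by 21 bases, and C56A3.8 averaged 4.59 ± 0.976 CPM over the N2 libraries and 3.85 ± 0.882 CPM over the F01D4.5(baf20) libraries (SD, n = 5 per strain). Its log2 fold change of −0.25 had an SE of 0.215 (edgeR, adjusted p = 0.927). The non-coding genes C56A3.12 and C56A3.14, also on the opposite strand, overlap 118 and 190 bases and were at or near 0. No source used here states whether the counting kept the strands apart, so that reads in such overlaps could belong to either gene. Exons on the opposite strand overlap 11 of the 48 tested genes, namely wrt-2, grd-15, grl-1, grl-8, grl-10, grl-15, grl-17, ptc-2, ptr-1, ptr-8 and ptr-15.

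ptc-2, with the values given above, averaged 9.31 ± 2.19 CPM over the N2 libraries and 13.6 ± 1.82 CPM over the F01D4.5(baf20) libraries (SD, n = 5 per strain). The fit of edgeR gave log2 fold change 0.55 with an SE of 0.179 and adjusted p = 0.756. Leaving out both libraries numbered 5 gave a log2 fold change of 0.54 (adjusted p = 0.199 by edgeR). ptr-22 averaged 1.06 ± 0.517 CPM over the N2 libraries and 1.98 ± 1.22 CPM over the F01D4.5(baf20) libraries (SD, n = 5 per strain), with its highest values of 3.79 and 2.71 CPM in F01D4.5(baf20) replicates 1 and 2, and edgeR gave log2 fold change 0.89 with an SE of 0.465 and adjusted p = 0.891. ptr-13 averaged 79.9 ± 16.5 CPM over the N2 libraries and 102 ± 21.4 CPM over the F01D4.5(baf20) libraries (SD, n = 5 per strain), with a log2 fold change 0.35 with an SE of 0.177 and adjusted p = 0.884 by edgeR. Of these genes grl-17 and ptc-2 passed the unadjusted threshold, and ptr-22 and ptr-13 did not. For the genes at the highest levels per length, the log2 fold changes by edgeR were −0.14 for grd-5 (SE 0.348), −0.0089 for grd-3 (SE 0.207), −0.56 for grd-14 (SE 1.03), −0.20 for grl-4 (SE 0.397) and 0.13 for grl-21 (SE 0.678) on the ligand-like side and 0.13 for ptr-2 (SE 0.169), 0.11 for ptr-21 (SE 0.290) and 0.011 for ptr-8 (SE 0.159) on the receptor-like side, with adjusted p between 0.939 and 0.996. ptc-1 had log2 fold change 0.036 with an SE of 0.174 and adjusted p = 0.980 by edgeR.

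For the genes named for their high libraries numbered 5, other than ptc genes, the strain estimates were negative and their SEs were large. The ptc family has only 3 tested genes, so that the rule names all of them whatever their libraries numbered 5. By edgeR, the log2 fold changes were −0.72 for wrt-4 (SE 1.16), −0.60 for wrt-6 (SE 1.22) and −0.58 for wrt-8 (SE 1.23), −0.89 for grd-2 (SE 0.954) and −0.37 for grd-6 (SE 1.29), and −0.43 for grl-1 (SE 1.10), −1.56 for grl-5 (SE 1.07) and −1.40 for grl-15 (SE 0.888). On the receptor-like side they were −0.39 for ptr-3 (SE 0.841), −0.85 for ptr-4 (SE 0.910) and −0.57 for ptr-18 (SE 0.946). All of these had adjusted p between 0.90 and 0.972. Negative estimates, that is lower values in F01D4.5(baf20), were found for 24 of 26 ligand-like genes (median −0.47) and for 14 of 22 receptor-like genes (median −0.082), beside 5773 of all 12332 tested genes (median 0.018). Negative estimates of like size were those of −1.50 for wrt-2 (SE 1.01), −1.24 for wrt-10 (SE 0.999) and −1.10 for wrt-1 (SE 0.861), and −0.76 for ptr-16 (SE 0.679), −0.72 for wrt-9 (SE 0.787) and −0.69 for grd-15 (SE 0.833), with adjusted p between 0.903 and 0.939 by edgeR. The estimates were −0.052 for wrt-5 (SE 0.326) and −0.17 for ptc-3 (SE 0.402), with adjusted p of 0.983 and 0.959 by edgeR. By family, the medians were −0.72 for wrt, −0.14 for grd, −0.41 for grl, 0.036 for ptc and −0.092 for ptr.

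These medians depended on the libraries numbered 5. Without N2 replicate 5 the ligand-like median was 0.097 (11 of 26 negative) and the receptor-like median 0.19, so that both turned positive. The receptor-like median was also above 0 without F01D4.5(baf20) replicate 3, at 0.0046, and with 2 surrogate variables in the model, at 0.028. With N2 replicate 5 left out, 0 ligand-like and 0 receptor-like genes had an unadjusted p under 0.05 by edgeR and were lower in F01D4.5(baf20) (beside 2.63% of all tested genes), and 1 and 1 were higher (beside 4.32%). Leaving out F01D4.5(baf20) replicate 5 gave medians of −1.85 and −0.48. In that fit 16 of 27 ligand-like and 5 of 23 receptor-like genes were lower at the same unadjusted threshold (beside 9.62%), 1 and 2 were higher (beside 6.77%), and none passed the adjusted one. Between the libraries numbered 5 themselves, a single library a strain, N2 was the higher one in 23 of 26 ligand-like and 10 of 22 receptor-like genes (88.5% and 45.5%), beside 50.1% of all tested genes.

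With both libraries numbered 5 left out, the ligand-like genes had lower estimates with smaller SEs for those named here, and no gene passed the adjusted threshold. The ligand-like median was then −0.95, with 22 of 25 negative, and the receptor-like median −0.064, with 12 of 23 negative. At an unadjusted p under 0.05 by edgeR, 12 ligand-like and 5 receptor-like genes were lower and 1 and 2 higher, where 8.14% of all tested genes were lower and 7.3% higher. The estimates were −2.31 for grl-5 (SE 0.617, adjusted p = 0.183), −2.30 for grd-6 (SE 0.648, adjusted p = 0.200), −1.88 for wrt-4 (SE 0.571, adjusted p = 0.214), −1.09 for ptr-3 (SE 0.270, adjusted p = 0.140) and −1.25 for ptr-4 (SE 0.324, adjusted p = 0.159), all by edgeR. N2 replicate 1 was the lowest N2 library in 8 of 8 wrt genes and in 30 of 48 genes of both sides. In 28 of these 30 it lay within the range of F01D4.5(baf20) replicates 1 to 4. The shares over all tested genes were not computed for these counts, so that they cannot be read as a trait of these genes. The moult genes summed to 155, 274, 295 and 299.6 CPM in N2 replicates 1 to 4 and 221, 198, 146 and 178 CPM in F01D4.5(baf20) replicates 1 to 4. Their part in the strain estimates was not tested.

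**Figure D5:**
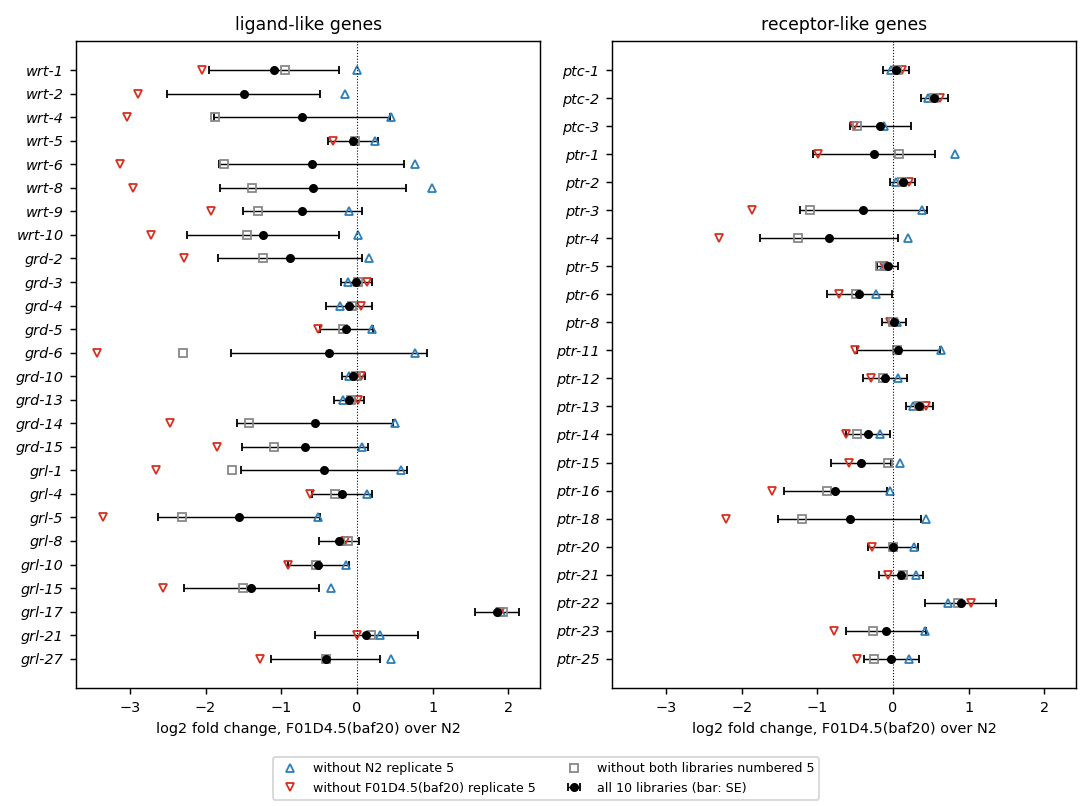
Log2 fold change of F01D4.5(baf20) over N2 for each tested gene by edgeR, from all 10 libraries (black, bar is the SE) and with N2 replicate 5, F01D4.5(baf20) replicate 5 or both left out (open symbols). For wrt, several grd and grl genes, ptr-3, ptr-4 and ptr-18 the open triangles lie on opposite sides of the black points, whereas for grl-17, ptc-2, ptr-2 and ptr-8 they lie close to them.

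A list of 11 further genes holds those whose products are related to proteins that make, release, bind or pass on Hedgehog elsewhere. All 11 were tested, 0 passed by edgeR, and 7 had negative and 4 positive estimates (median −0.21). Of all 12332 tested genes, 5773 had negative estimates (median 0.018), and both libraries numbered 5 were highest in 23.2%. Both were highest in 6 of the 11 listed genes. These included che-14 and ptd-2, relatives of Dispatched, which releases Hedgehog from cells in other animals, with 17.1 and 16.3 CPM in the libraries numbered 5 against 3.63 to 7.72 for che-14 and 17.2 and 14.5 CPM in the libraries numbered 5 against 1.82 to 6.69 for ptd-2. daf-6, a patched-related gene that shapes the glial channel of sense organs, had 16.3 and 13.2 CPM in the libraries numbered 5 against 1.61 to 3.93. hhat-1, a relative of the enzyme that acylates Hedgehog in other animals, had 34 and 27.9 CPM in the libraries numbered 5 against 0.907 to 8.85, and hhat-2 had 4.88 and 3.73 CPM in the libraries numbered 5 against 1.26 to 2.38. phg-1, related to the vertebrate Hedgehog-binding protein GAS1, had 7.68 and 7.57 CPM in the libraries numbered 5 against 0.359 to 2.09.

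The other pathway genes were flatter. tra-1, the Gli-type transcription factor of sex determination, averaged 43.5 ± 6.12 and 48.0 ± 10.7 CPM in N2 and F01D4.5(baf20) (SD, n = 5 per strain). lrp-1, the megalin-like receptor needed for moulting, had 155 ± 35.9 and 173 ± 14.8 CPM. The sterol-sensing genes scp-1, ncr-1 and ncr-2, which resemble SCAP and the Niemann-Pick C1 protein, had 51.2 ± 4.73 and 51.2 ± 7.18 CPM, 92.8 ± 33.1 and 78.4 ± 25.7 CPM and 23.2 ± 3.41 and 27.0 ± 6.03 CPM. For all of these the strains overlapped. tra-1 and scp-1, like hhat-2 above, have 2 transcript rows each, so that their levels may be too low.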

How the data were processed

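The authors deposited 1 table per library with raw counts for 57827 rows, mostly transcripts. Tools named in the submitters' processing notes are HTSeq, HISAT2, CASAVA and DESeq2, with no version, and builds ce10 and ce11. Libraries came from a stranded kit per the labels, while the strand setting of the counting was not given in the sources used here. Rows were matched to the Ensembl annotation of WBcel235 (57515 rows, 99.78% of counts) and summed per gene. Symbols came from RefSeq and WormBase name tables, and coordinates are those of WBcel235, from 1. Rows without a match were kept under their own names, so that 46458 of the 46752 genes counted were matched ones.

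Strains were compared with edgeR 4.0.16 (R 4.3.3): filterByExpr by strain (minimum count 10, minimum total 15), TMM scaling, robust quasi-likelihood fit with strain as the only term, two-sided, p adjusted over all genes tested. Alternatives used DESeq2 1.42.0 and sva 3.50.0. CPM are counts per 1e6 of TMM-scaled totals, and CPM per kb divide by the union of annotated exons. The step was tested on simulated data. Members, lists and tests were chosen with earlier results of these data known. Named in full are members at an unadjusted p under 0.05 or without overlap, and per family the 3 highest per length and the 3 with the highest libraries numbered 5. Further members are named for completeness.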

Additional observations from a re-analysis of the deposited data

Results flagged for a closer look

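In 13 of the 24 genes described in full, 1 library of each strain stood apart from the other 4 by Dixon's criterion, and in every case it was replicate 5. The values in N2 replicate 5 and F01D4.5(baf20) replicate 5 were 143 and 113 CPM for wrt-4, 136 and 113 CPM for wrt-6, 35.0 and 27.4 CPM for wrt-8, 15.2 and 9.50 CPM for grd-2, 391 and 370.0 CPM for grd-5 and 153 and 169 CPM for grd-6. For grd-14 they were 497 and 433 CPM, for grl-1 13.0 and 13.5 CPM, for grl-5 80.5 and 34.7 CPM, for grl-15 28.2 and 11.4 CPM, for ptr-3 38.2 and 39.2 CPM, for ptr-4 59.4 and 38.4 CPM and for ptr-18 85.9 and 71.6 CPM. grl-4 met it in F01D4.5(baf20) replicate 5 alone, with 206 CPM. Of the 13, 12 had been chosen for their high libraries numbered 5, so that the rate of about 1 in 20 groups that chance gives does not apply and the criterion restates the choice. The genes share their libraries, so that these are not separate observations.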

How the results depend on the processing

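The count of genes past the threshold was 0 in edgeR's test and stayed so under every alternative but DESeq2 and 2 surrogate variables, which gave 1 each (grl-17, adjusted p = 0.0133 and 0.0379, log2 fold change 1.87 and 1.85). In both of these, grl-17 had entered through F01D4.5(baf20) alone, so that neither call adds support. Over all alternatives that tested grl-17 its adjusted p ranged from 0.0133 to 0.283, while the filter of 5 CPM removes it. With any single library left out, the ligand-like median ranged over −1.85 to 0.097 and the receptor-like median over −0.48 to 0.19, with the ends set by the libraries numbered 5. Same-numbered libraries correlated in their deviations from the strain means at −0.13 to 0.822, and only those numbered 5 correlated best with each other, so that the numbers were not taken to pair samples. With the replicate block, the ligand-like median was −0.89, the receptor-like median −0.090 and the count 0, but 10 ligand-like and 4 receptor-like genes were lower at an unadjusted p under 0.05 by edgeR (beside 6.44% of all tested genes) and 1 and 2 higher (beside 4.96%), where the fit without it had 0 lower and 2 higher. Signs turned as follows, for estimates that passed in no case; the cause was not tested. Log2 fold changes were, without both libraries numbered 5, grd-3 0.018; with 2 surrogate variables, grd-5 0.20, grl-21 −0.61, ptc-3 0.021, ptr-8 −0.087, wrt-5 0.18 and wrt-8 0.026. They were, with F01D4.5(baf20) replicates 1 and 2 summed, grl-21 −0.12 and ptr-8 −0.057; with the replicate block, grl-21 −0.20 and ptr-8 −0.010. They were also, by DESeq2, ptr-8 −0.0022; with DESeq2 size factors, ptr-8 −0.0022; with at least 5 CPM in 5 libraries, ptr-8 −0.014; on the rows as deposited, ptr-8 −0.010. With single libraries left out, the ranges that crossed 0 were −2.48 to 0.50 for grd-14, −2.29 to 0.16 for grd-2, −0.12 to 0.13 for grd-3, −0.51 to 0.20 for grd-5, −3.43 to 0.77 for grd-6, −2.66 to 0.58 for grl-1, −0.21 to 0.40 for grl-21, −0.62 to 0.13 for grl-4, −0.091 to 0.12 for ptc-1, −0.52 to 0.015 for ptc-3, −2.21 to 0.43 for ptr-18, −0.071 to 0.31 for ptr-21, −1.86 to 0.38 for ptr-3, −2.29 to 0.19 for ptr-4, −0.086 to 0.089 for ptr-8, −3.05 to 0.45 for wrt-4, −0.32 to 0.24 for wrt-5, −3.13 to 0.77 for wrt-6 and −2.96 to 0.99 for wrt-8. Too few counts were found for a test of 30 genes, 6 of which have several rows. No listed alternative was left out.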

Other observations

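The genes of both sides were counted per chromosome, without the share of all genes that each chromosome holds. Chromosome V carries 30 of the 60 ligand-like genes, chromosome IV 12, X 10, III 4, II 2 and I 2. Of the 27 receptor-like genes, 9 lie on II, 7 on I, 4 on V, 3 on III, 3 on X and 1 on IV. Besides the neighbours described above, grl-8 and grl-9 lie 136 bases apart on chromosome V, with 503 and 19 counts over all libraries, and wrt-7 and wrt-8 lie 4548 bases apart, with 13 and 759 counts. These pairs differ in counts, as do grd-14 and grd-4, with 12940 and 414, and grd-3 and grd-13, with 19296 and 2591. wrt-1 and wrt-10 had similar counts, 849 and 899, but 4.99 and 8.28 CPM per kb.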
